A study of Mus musculus with 8 samples.

Results

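The 8 genes described here encode proteins that bind double-stranded RNA, or its left-handed Z form, or pass that signal on. They are Ifih1, Ddx58, Dhx58, Mavs, Eif2ak2, Zbp1, Oas1a and Oasl2. They were chosen by gene name as sensors whose ligands are limited by ADAR, the enzyme that turns adenosine into inosine in double-stranded RNA. All 8 were among the 16308 genes of the count table of Th17 and naive CD4 T cells, and 1 edited site was listed in them. Th17 cells are the helper T cells that make interleukin-17. All cells were mouse cells of the C57BL/6 strain, and RNA was sequenced after removal of ribosomal RNA. The groups were Th17 cells, DDX5-deficient Th17 cells, wild-type Th17 cells set beside the deficient ones, and untreated naive CD4 cells. Each group had 2 libraries, which the submitters call independent biological replicates. The deposited names of the Th17 and naive libraries mark them as wild type (WT) too. In the gene counts these names also begin with Malat1, a word absent from the deposited names of the other libraries. Below, wild type means the libraries set beside the deficient ones. The labels give all 3 Th17 groups 72 h of culture, with antibodies to CD3ε (0.25 µg/mL) and CD28 (1 µg/mL) and the cytokines TGF-β (0.1 ng/mL) and IL-6 (20 ng/mL). DDX5 is an RNA helicase. The labels name its loss DDX5∆T, and the driver of the deletion is not given in the sources used here. Gene counts of the deficient and matched wild-type libraries were not analysed here, so loss of Ddx5 was not checked.

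Double-stranded RNA in the cytoplasm is a sign of virus infection, but transcripts of the cell itself can also fold into it, and inosines made by ADAR loosen such pairing. RIG-I (Ddx58) and MDA5 (Ifih1) are helicases that bind such RNA and meet the adaptor MAVS on mitochondria, which leads to type I interferon. PKR (Eif2ak2) instead stops translation by phosphorylating eIF2 alpha, the OAS enzymes make oligoadenylates, a second messenger, and ZBP1 binds Z-form RNA and can start necroptosis. Most of these genes are themselves induced by interferon.

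The sensors split in Th17 compared with naive cells. Of the 8 genes, all tested, 2 rose (Eif2ak2 and Ifih1), 4 fell (Oasl2, Ddx58, Zbp1 and Oas1a) and 2 were not called (Dhx58 and Mavs). A gene was called where its adjusted p was under 0.05, from the quasi-likelihood test of edgeR after Benjamini-Hochberg adjustment. Among all 11989 tested genes 65.1% were called, 34.3% higher and 30.7% lower, so 6 calls among 8 genes are close to the share over all genes. The median log2 fold change of the 8 genes was -0.50, against 0.06 over all tested genes. The CPM ranges of Th17 and naive libraries did not overlap for any of the 8, with 3 genes higher and 5 lower. The same held for 85.0% of all tested genes, 44.1% higher and 40.8% lower. In bulk RNA, fewer cells of a type and less RNA per cell cannot be told apart.

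**Figure D1:**
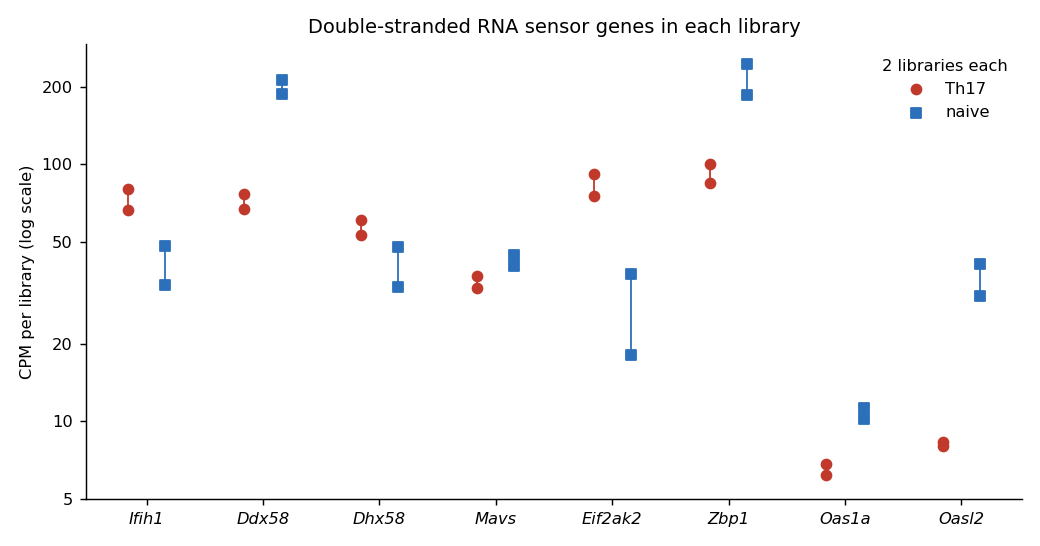
CPM (reads scaled to a common library size) of the 8 sensor genes on a log axis, with 1 point per library and a line joining the 2 libraries of a group. Th17 points lie above naive points for Ifih1, Dhx58 and Eif2ak2 and below them for the other 5 genes, and the widest gap between libraries of a group is that of Eif2ak2 in naive cells.

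Stretches around the annotated start of 5 of these genes are shown here because interferon acts on many of them through a short element. The stretches run from 100 bases before the RefSeq start to 50 bases after it, 5′ to 3′ on the gene's strand, in build GRCm38.p6. Capitals mark matches on either strand to GAAA, any 2 bases and GAAA, the core of the interferon-stimulated response element.
Eif2ak2, chr17:78882523-78882672, minus strand: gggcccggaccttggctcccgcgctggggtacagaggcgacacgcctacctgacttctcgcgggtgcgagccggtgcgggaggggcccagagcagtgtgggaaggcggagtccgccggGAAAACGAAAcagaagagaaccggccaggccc
Ifih1, chr2:62646206-62646355, minus strand: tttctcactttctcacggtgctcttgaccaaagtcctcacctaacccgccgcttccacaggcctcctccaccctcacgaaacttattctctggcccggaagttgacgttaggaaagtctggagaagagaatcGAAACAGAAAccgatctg
Ddx58, chr4:40239776-40239925, minus strand: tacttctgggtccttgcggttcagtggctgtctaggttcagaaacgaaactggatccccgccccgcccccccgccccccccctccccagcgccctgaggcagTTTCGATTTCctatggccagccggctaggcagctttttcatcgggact
Oas1a, chr5:120907476-120907625, minus strand: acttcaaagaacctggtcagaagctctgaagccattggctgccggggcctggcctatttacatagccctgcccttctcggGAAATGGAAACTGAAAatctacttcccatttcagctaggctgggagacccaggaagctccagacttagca
Oasl2, chr5:114896834-114896983, plus strand: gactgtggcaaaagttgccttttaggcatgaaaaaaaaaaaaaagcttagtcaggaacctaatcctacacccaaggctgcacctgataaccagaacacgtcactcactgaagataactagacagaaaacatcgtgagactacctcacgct

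Promoters of 300 bases, from RefSeq, were matched for 6 of the 8 genes, those shown and Mavs. The element core was found in 4 of the 6, against 3.44% of the 32851 promoters of that length. It was in Eif2ak2 and Ifih1, which rose, and in Ddx58 and Oas1a, which fell. Oas1a held 2 overlapping matches on the strand of the gene, which end 5 bases before its start, and that of Ddx58 lies on the opposite strand. The letters were not found in the window of Oasl2 or Mavs. A second motif, TTCNNNGAA, the gamma-activated site, reads the same on both strands and was found in Oas1a and Eif2ak2, and in 8.30% of all such promoters. It overlapped no match of the first motif. A match is a description of the letters, not of binding.

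Among the helicases of the RIG-I family, Ddx58 and Ifih1 moved in opposite directions. Ddx58 (chromosome 4, 40203773 to 40239828) had 76.9 and 67.0 CPM in Th17 libraries, against 213 and 187 CPM in naive libraries. Both Th17 libraries lay far below both naive ones, a 2.78-fold lower mean. The log2 fold change was -1.47 (SE 0.16), and the quasi-likelihood test of edgeR gave an adjusted p of 6.3e-05. Ifih1 (chromosome 2, 62595798 to 62646255), whose product MDA5 binds long double-stranded RNA, had 80.0 and 66.1 CPM in Th17 libraries, against 48.0 and 33.8 CPM in naive libraries. The Th17 libraries were higher, by a log2 of 0.84 (SE 0.20), at an adjusted p of 0.0063 in edgeR. Without naive library 2 the log2 fold change of Ifih1 was 0.53 and its adjusted p by edgeR was 0.092, in a range of 2.3e-05 to 0.092 over the 11 alternatives, and the count of sensors that rose was then 1.

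Dhx58 encodes LGP2, the family member that has no signalling domain and tunes the other helicases. It had 53.1 and 60.9 CPM in Th17 libraries, against 47.6 and 33.4 CPM in naive libraries. The groups did not overlap, but the 2 naive libraries lay further apart than the nearest libraries of the 2 groups. At a log2 of 0.49 (SE 0.19) it did not pass in edgeR, where its adjusted p was 0.052, and 5 of 11 alternatives called it higher. In the authors' deposited table its adjusted p was 0.056. Dhx58 (chromosome 11, 100694884 to 100704271) overlaps the gene Dhx58os on the other strand. Use of strand in counting is not given in the sources used here, so reads of these genes cannot be told apart. Mavs, the adaptor of the helicases (chromosome 2, 131234063 to 131248025), had 36.7 and 33.0 CPM in Th17 libraries, against 40.1 and 44.5 CPM in naive libraries. Its log2 fold change of -0.28 (SE 0.15) did not pass in edgeR, where its adjusted p was 0.14, and none of the 11 alternatives called it.

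The kinase gene Eif2ak2 had the largest rise of the 8. Eif2ak2 (chromosome 17, 78852564 to 78882573) had 91.3 and 75.3 CPM in Th17 libraries, against 37.4 and 18.1 CPM in naive libraries. Both Th17 libraries were above both naive ones, while naive library 2 held 48.4% of the level of naive library 1. The log2 fold change was 1.58 (SE 0.39), at an adjusted p of 0.025 in edgeR. It was 1.08 without naive library 2 and 2.16 without naive library 1, and called in both. Genes overlap Eif2ak2 on the other strand (Gm26637 and n-R5s29), whose reads cannot be told apart from its own.

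Zbp1 encodes the sensor of Z-form nucleic acid. Zbp1 (chromosome 2, 173206612 to 173218923) had 99.9 and 84.6 CPM in Th17 libraries, against 244 and 186 CPM in naive libraries. Its Th17 libraries were lower, a 2.33-fold lower mean, with a log2 fold change of -1.22 (SE 0.18) and an edgeR adjusted p of 4.2e-04. Across the 11 alternatives the log2 fold change lay between -1.48 and -1.06, and the call held in each.

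Oas1a and Oasl2, the OAS family genes among the 8 sensors, were the least abundant of the 8 in Th17 cells. This does not hold for the whole family, since Oas3, outside the 8, had 221 and 212 CPM in Th17 libraries. Oasl2 (chromosome 5, 114896936 to 114912234), an OAS-like protein with ubiquitin-like domains, had 8.29 and 8.03 CPM in Th17 libraries, against 40.9 and 30.8 CPM in naive libraries. It was the largest fall of the 8, a 4.39-fold lower mean, with a log2 fold change of -2.13 (SE 0.20) and an edgeR adjusted p of 2.6e-05. Oas1a, an oligoadenylate synthetase gene (chromosome 5, 120896256 to 120907521), had 6.83 and 6.21 CPM in Th17 libraries, against 10.2 and 11.3 CPM in naive libraries. The libraries of the 2 groups did not overlap, and the log2 fold change of -0.72 (SE 0.26) passed at an edgeR adjusted p of 0.037. Oas1a rested on the fewest reads of the 8, 82 in Th17 library 2 with an exact Poisson 95% interval of 65.2 to 102 for counting error alone. Its call was lost in 7 of 11 alternatives, among them without Th17 library 2 and without either naive library, and its adjusted p in the authors' deposited table was 0.11. Mouse Oas1 genes are near copies of each other, so reads of Oas1a may be shared with its neighbours.

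**Figure D2:**
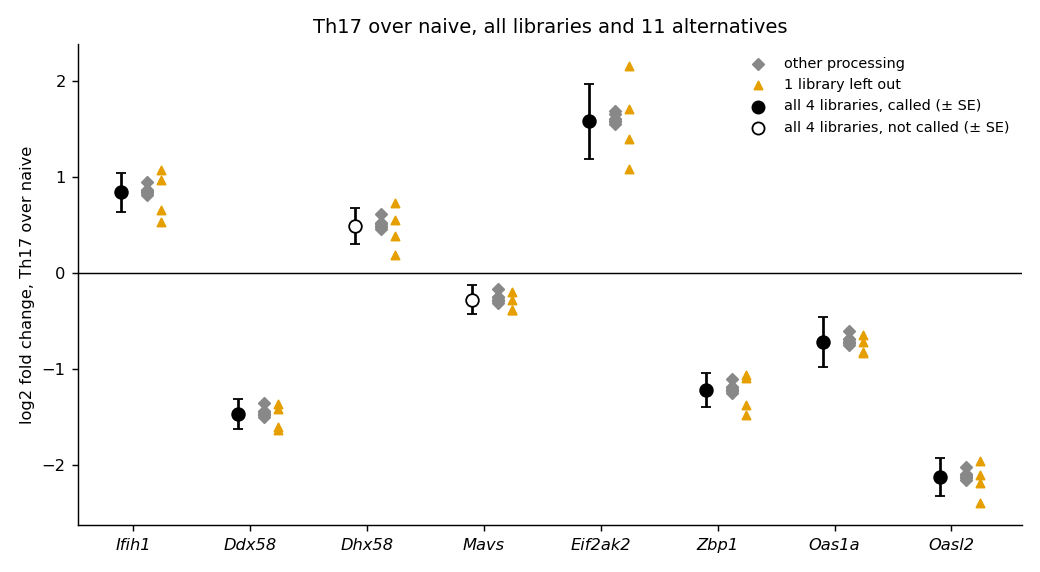
Log2 fold change, Th17 over naive, of each sensor gene, with all 4 libraries (circles, with SE, filled where called), under 7 other ways of processing (diamonds) and with 1 library left out (triangles). Directions stay the same for every gene and alternative, and the widest spread is that of Eif2ak2, from 1.08 to 2.16.

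Levels per length, as RPKM on the union of annotated exons, were compared between the genes. The lengths of the transcripts made in these cells were not measured, so the order of the genes depends on the exon lengths used. In Th17 cells Zbp1 was highest at 26.1 ± 3.06 RPKM (SD, n = 2), followed by Dhx58 at 17.4 ± 1.68 and Eif2ak2 at 16.3 ± 2.21 RPKM. The library ranges of Dhx58 and Eif2ak2 overlapped. Mavs at 10.4 ± 0.791, Ddx58 at 10.2 ± 0.996 and Ifih1 at 8.95 ± 1.20 RPKM followed, each overlapping the next, and below them were Oas1a at 3.46 ± 0.233 and Oasl2 at 1.28 ± 0.0287 RPKM (SD, n = 2). In naive cells Zbp1 was also highest, at 61.0 ± 11.5 RPKM, and Ddx58 was next at 28.3 ± 2.62 RPKM (SD, n = 2), with no overlap between them or with any gene below. Mavs at 12.6 ± 0.927 and Dhx58 at 12.4 ± 3.06 RPKM overlapped. The lowest 4, Oas1a, Oasl2, Eif2ak2 and Ifih1, lay between 5.01 and 5.71 RPKM on average and each overlapped the next.

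Ratios within a library do not depend on how libraries are scaled. Ddx58 per length was 1.11 and 1.17 times Ifih1 in Th17 libraries, against 5.13 and 6.40 times in naive libraries. The ratio of Ddx58 to Ifih1 was thus lower in both Th17 libraries than in either naive library. By CPM, Ddx58 and Ifih1 had 76.9 and 80.0 in Th17 library 1, and 67.0 and 66.1 in Th17 library 2. Which gene is higher in Th17 library 1 therefore depends on the exon lengths used. Dhx58 per length stood at 1.49 and 1.96 times Ddx58 in Th17 libraries, against 0.482 and 0.386 times in naive libraries. The order of these genes was thus turned round per length only. By CPM Dhx58 lay below Ddx58 in every library, with 53.1 and 60.9 against 76.9 and 67.0 CPM in Th17 libraries. Mavs was at 1.01 and 1.04 times Ddx58 in Th17 libraries, against 0.397 and 0.502 times in naive libraries. Zbp1 exceeded Eif2ak2 by 1.59 and 1.63 times in Th17 libraries, against 9.45 and 14.9 times in naive libraries. Zbp1 made up 28.6% and 26.8% of the summed RPKM of the 8 genes in Th17 libraries, against 45.8% and 43.5% in naive libraries. The sum itself was 99.0 and 89.3 RPKM in Th17 libraries, against 151 and 121 RPKM in naive libraries. These ratios were not tested, since an exact permutation test of 2 against 2 libraries cannot go below a two-sided p of 0.333.

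**Figure D3:**
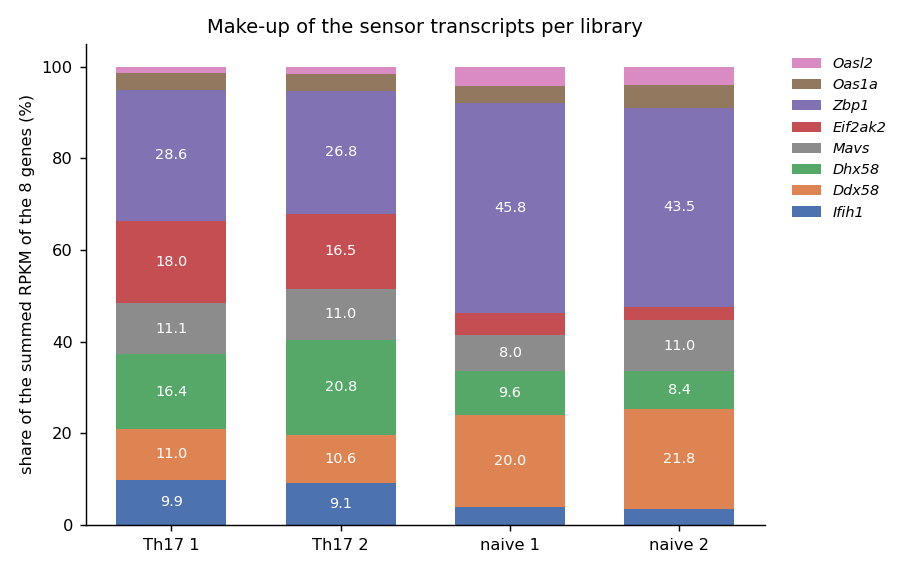
Share of each sensor gene in the summed RPKM of the 8 genes, as stacked bars that start at 0, for the 2 Th17 and the 2 naive libraries. Eif2ak2 holds 18.0% and 16.5% in Th17 libraries, against 4.85% and 2.92% in naive libraries, and Ddx58 and Zbp1 hold smaller shares in Th17 than in naive libraries.

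The naive libraries differed from each other for these genes. Naive library 1 lay above naive library 2 for 6 of the 8 sensors, with a median log2 ratio of 0.40, and for 16 of 22 tested interferon-stimulated genes outside the sensors, with a median of 0.36. Over all tested genes the median was 0.00 and 49.1% lay above. The part of this difference in the fold changes was not tested beyond leaving out each library. Th17 library 1 lay above Th17 library 2 for 7 of the 8, with a median log2 ratio of 0.18 against 0.07 over all tested genes. The same order held for 7221 of all 11989 tested genes. Reads on genes were 26624436 and 11768994 in Th17 libraries and 20426728 and 16154625 in naive libraries, and the sensors had 82 to 4597 reads each. The Th17 markers Il17a and Il22 had 0 naive reads, and all 7 listed Th17 markers rose, while all 7 markers of naive T cells fell. Of 6 tested general markers of CD4 T cells 0 rose and 4 fell (Cd3e, Cd3g, Cd4 and Lck), with a median log2 fold change of -1.30, lower than the -0.50 of the sensors. Myeloid markers, from cells that also express these sensors, summed to 8.50 and 10.4 CPM in Th17 libraries, against 17.7 and 12.3 CPM in naive libraries, with 1 of 8 tested higher, 4 lower and none at 0 in a whole group. B cell markers summed to 52.5 and 46.0 CPM in Th17 libraries, of which Ebf1 alone gave 51.9 and 44.6 CPM, against 2.28 and 3.10 CPM in naive libraries. Of 3 tested B cell markers 1 was higher and 1 lower, Blk was at 0 in Th17 and Ms4a1 and Cr2 at 0 in naive cells. Dendritic markers summed to 296 and 265 CPM in Th17 libraries, against 124 and 118 CPM in naive libraries, with 4 of 6 tested higher and 1 lower, mostly from Bst2, Cst3 and H2-Ab1. Of the more specific dendritic markers Siglech was at 0 in Th17 cells, against 1 naive read, and Clec9a was at 0, against 9 naive reads. Xcr1 was at 0 in naive cells, against 2 Th17 reads. Zbtb46 rose, at 3.09 and 4.09 CPM in Th17 libraries, against 0.318 and 0.211 CPM in naive libraries. Itgax fell, at 0.139 and 0 CPM in Th17 libraries, against 1.27 and 1.06 CPM in naive libraries, and Flt3 was not called. CD8 and NK markers summed to 53.2 and 52.1 CPM in Th17 libraries, against 92.1 and 108 CPM in naive libraries, with 1 of 5 tested higher, 3 lower and Klrg1 at 0 in Th17 cells. The part of other cell types in the results was not tested.

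Genes that carry the signal of RIG-I and MDA5 onward were also split. Of 23 tested relay genes 7 rose and 11 fell, where 34.3% of all tested genes rose and 30.7% fell, and the median log2 fold change was -0.47 against 0.06 over all tested genes. Irf3, the factor that MAVS signalling activates first, had 53.7 ± 4.72 CPM in Th17 cells against 209.7 ± 0.0133 CPM in naive cells (SD, n = 2), a log2 fold change of -1.96. The kinase genes for it, Tbk1 and Ikbke, fell with log2 fold changes of -1.31 (SE 0.19) and -3.07 (SE 0.17). Irf7, which amplifies interferon production, fell with -1.63, whereas Irf5 rose with 4.71, at 55.6 ± 9.45 CPM in Th17 cells against 2.13 ± 0.0801 CPM in naive cells (SD, n = 2). Of the TRAF adaptors, Traf2, Traf3 and Traf5 fell with log2 fold changes of -1.12, -0.78 and -3.27, and Traf6 rose with 0.59. Tradd fell to 21.5 CPM in Th17 cells, against 42.8 CPM in naive cells, and the NF-κB kinase genes Ikbkb and Ikbkg fell with -2.06 and -0.47. Ubiquitin ligases of RIG-I went both ways, with Mex3c at 1.11 and Rnf135, also called Riplet, at -0.96. The chaperone gene Ywhae and the mitochondrial receptor gene Tomm70a, which help RIG-I and MAVS meet their partners, rose with 1.37 and 0.81. Prkra, whose product PACT activates PKR and binds RIG-I, rose with 1.66, and the TLR3 adaptor gene Ticam1 with 1.21. The 5 relay genes not called were, named after their values were seen, Trim25, Zc3hav1, Tank, Chuk and Tlr3. Leaving out naive library 1 ended the calls of Rnf135, Ikbkg, Prkra and Traf6, and leaving out naive library 2 those of Rnf135, Prkra and Traf6. Without Th17 library 1 Rnf135 and Traf6 were not called, nor was Ikbkg without Th17 library 2.

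Brakes on this relay went both ways, with 3 of 13 tested higher and 5 lower. Of all tested genes 34.3% rose and 30.7% fell. Isg15, a ubiquitin-like modifier, rose with a log2 fold change of 1.65 (SE 0.19), and Tnfaip3, the ubiquitin editor A20, with 1.44 (SE 0.22). Rnf125, a ligase that degrades RIG-I and MDA5, fell with -0.94 (SE 0.25) and the deubiquitinase gene Cyld with -0.80 (SE 0.16). The lower count was 2 without naive library 1 and 3 without any other library, and Tnfaip3 was not called without either naive library, nor Rnf125 without naive library 1.

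The rest of the OAS system changed in both directions. Of 9 tested genes, Oas1a and Oasl2 among them, 3 rose and 5 fell, where 34.3% of all tested genes rose and 30.7% fell. Oas2 had 1.97 ± 0.430 CPM in Th17 cells against 62.8 ± 10.4 CPM in naive cells (SD, n = 2), with a log2 fold change of -5.03 (SE 0.23). Oas3, the enzyme that prefers long double-stranded RNA, had 217 ± 6.29 CPM in Th17 cells against 55.5 ± 10.5 CPM in naive cells (SD, n = 2), with a log2 fold change of 1.97 (SE 0.18). Oas1c fell with -1.60 (SE 0.18). Abce1, which recycles ribosomes, and Pde12, which degrades oligoadenylates, rose with 0.67 and 0.58. Oasl1, named after its values were seen, did not pass at -0.68. Without Th17 library 1 or either naive library 1 gene rose, and without naive library 1 the lower count was 3.

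Around PKR stand the genes of the eIF2 alpha kinases and the integrated stress response. Of 20 tested, Eif2ak2 among them, 12 rose, 2 fell and 6 were not called, where 34.3% of all tested genes rose and 30.7% fell. The median log2 fold change was 0.72, and whether the list differs from other genes was not tested. Trib3, a target of the stress factor ATF4, had 37.8 ± 4.36 CPM in Th17 cells against 7.40 ± 0.486 CPM in naive cells (SD, n = 2). Chac1, another such target, had 402 Th17 reads and 0 naive reads and was at least 47.6-fold higher, taking 3 reads per library as the floor. Dnajc3, whose product P58IPK inhibits PKR, fell with a log2 fold change of -1.13 (SE 0.15), and the heme-regulated kinase gene Eif2ak1 with -0.41 (SE 0.15). The lower count was 1 without either naive library or without Th17 library 2, in each of which Eif2ak1 was not called.

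Partners of ZBP1 in cell death were split. Of 10 tested genes, Zbp1 among them, 3 rose and 4 fell. This is close to the shares over all tested genes, of which 34.3% rose and 30.7% fell. Mlkl, the pore former of necroptosis, had 35.7 ± 5.71 CPM in Th17 cells against 0.354 ± 0.400 CPM in naive cells (SD, n = 2), with a log2 fold change of 6.52 (SE 0.65) that rests on 13 naive reads, 12 of them in naive library 1. It was 8.82 without naive library 1 and 5.72 without naive library 2, and called in both. Casp6 rose with 1.94, and the inflammasome gene Nlrp3 had 2 naive reads and a ratio of 32.6 with an exact 95% counting interval of 8.75 to 274. Casp8, Fadd and the inflammasome adaptor gene Pycard fell with log2 fold changes of -0.50, -1.16 and -1.48. The kinase genes Ripk1 at -0.22 and Ripk3 at -0.24 and the caspase regulator gene Cflar at 0.17, which the naming rule leaves out, did not pass. Nlrp3 was not called without either naive library, nor Casp8 without naive library 1 or Th17 library 2.

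**Figure D4:**
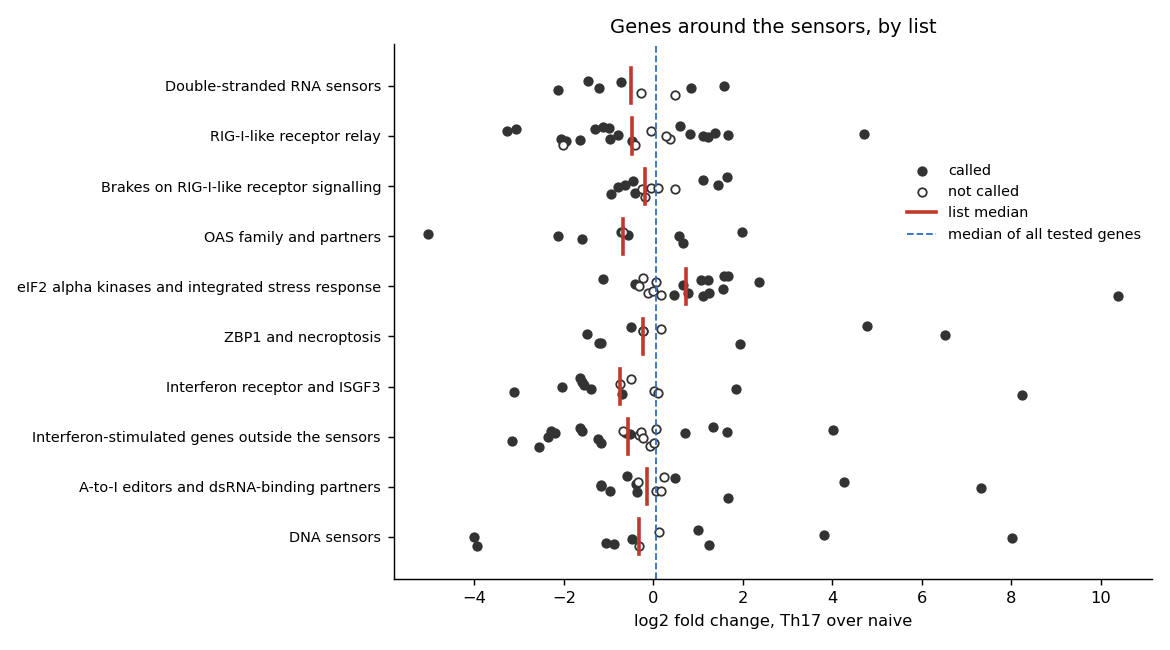
Log2 fold change, Th17 over naive, of each tested gene of 10 lists (points, filled where called), with the median of each list (red bar) and of all tested genes (dashed line, 0.06). Only the eIF2 alpha list has a median above the dashed line, at 0.72, and the fitted values of Chac1 and Ifnb1, with 0 naive reads, depend on the fitting constant and are no bounds.

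Upstream of the sensors are the interferon receptor and its transcription factors. Of 13 tested genes of this list 2 rose, 7 fell and 4 were not called, where 34.3% of all tested genes rose and 30.7% fell, and the median log2 fold change was -0.75. Irf1 had 39.5 ± 5.02 CPM in Th17 cells against 342 ± 2.72 CPM in naive cells (SD, n = 2), and the receptor kinase gene Jak1 fell with -2.03 (SE 0.18). Ifnb1, the interferon-β gene, had 87 Th17 reads and 0 naive reads, at least 10.7-fold higher at the floor of 3 reads per library, and Socs1, a feedback inhibitor, rose with 1.84 (SE 0.38), or 2.45 without naive library 1. Among 22 tested interferon-stimulated genes outside the sensors 4 rose and 11 fell, with a median of -0.57. Ifitm3, which blocks virus entry, and Isg15 rose with 4.01 and 1.65, and Rtp4 and Ifit3b fell with -3.16 and -2.55. Without either naive library 2 of these genes rose, and without naive library 1 Ifit3b was not called.

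The enzymes that limit the ligands of the sensors were also split. Of 14 tested editors and double-stranded RNA binding partners 4 rose and 6 fell, where 34.3% of all tested genes rose and 30.7% fell. Adar, which encodes ADAR1, had 141 and 127 CPM in Th17 libraries, against 351 and 259 CPM in naive libraries, and Adarb1, which encodes ADAR2, had 215 ± 35.8 CPM in Th17 cells against 1.32 ± 0.0794 CPM in naive cells (SD, n = 2). Stau2 rose with a log2 fold change of 4.25 (SE 0.48) and Ddx5 fell with -1.18 (SE 0.21). Without naive library 1 the lower count was 2, and without naive library 2 the higher count was 2. Of 11 tested DNA sensors and their regulators 4 rose and 5 fell, with the largest changes in the Ifi200 family, whose near copies may share reads. Ifi211 had 3 naive reads and a ratio of 293 with an exact 95% counting interval of 100.1 to 1425, Ifi204 rose with 3.81, and Mndal and Ifi203 fell with -4.01 and -3.94. Without either naive library 2 DNA sensor genes rose, and Ifi204 was not called.

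By the smallest root mean square difference of mean-centred log2 CPM over the 4 libraries, the genes most like Eif2ak2 were Kcnk6 at 0.0495, Csf2rb2 at 0.0514 and Zfp516 at 0.0889. A difference under 0.2 was found for 33 genes. The genes most like Oasl2 were Kdm7a at 0.0204, Shfl at 0.0343 and Iqgap2 at 0.0385, and 245 genes lay under 0.2. With 4 libraries in 2 groups, such likeness is mostly a like fold change.

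No edited site was listed in the 8 genes among the 869 sites of the Th17 and naive table, and 1 of the 355 sites of the DDX5-deficient and wild-type Th17 table was assigned to a member, Eif2ak2. Sites in these tables were kept at a confidence of 0.99, so a gene without a listed site may still be edited. All 355 sites listed for DDX5-deficient and wild-type cells had a level in both wild-type libraries, against 341 and 334 in DDX5-deficient libraries. A site with a level in deficient cells only was thus not listed, so sites gained there cannot be seen. How this listing bears on differences between these groups was not tested. The Eif2ak2 site lies at chromosome 17, position 78851359, in build mm10. That is 1205 bases beyond the end of the GENCODE M21 gene. It is 855 bases inside the end of the RefSeq gene (78850504 to 78882572), which is transcribed from the minus strand. The authors assign the site to Eif2ak2.

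Edited reads at the Eif2ak2 site were 20.9% and 9.23% in DDX5-deficient libraries, against 15.0% and 61.9% in wild-type libraries. The level of 61.9% in wild-type library 2 stood apart from the other 3, and the range of the wild-type libraries enclosed the DDX5-deficient level of 20.9%. The difference of DDX5-deficient minus wild type was -23.4 percentage points (SE 15.6), with an adjusted p of 0.58 by limma over the 328 sites with a level in all 4 libraries. Of those sites 0% passed at an adjusted p under 0.05 by limma, while 36 had an unadjusted p under 0.05, and the arcsine scale also gave 0. Without wild-type library 2 the difference was 0.0805 percentage points.

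The deposited coverage belonged to wild-type library 2, since the product of coverage and edited fraction there was a whole number, to within 0.01, for all 355 sites. It was 21 reads at the Eif2ak2 site, of which 13 were edited, an exact Clopper-Pearson 95% interval of 38.4% to 81.9% for counting error alone, and the depth in the other 3 libraries is unknown. The gap between the wild-type libraries was 46.9 percentage points, wider at 4 of the 355 sites, where the median gap was 7.36 percentage points. The median level over all sites was 21.4% in wild-type library 1 and 28.6% in wild-type library 2.

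**Figure D5:**
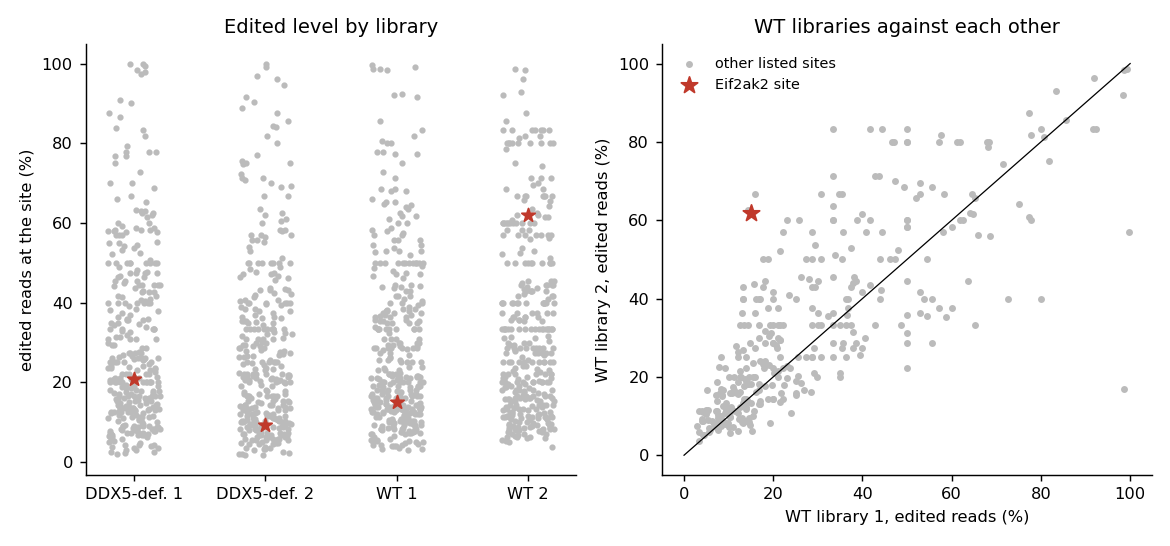
Left, percent of edited reads at each listed site in the DDX5-deficient and wild-type libraries, with the Eif2ak2 site as a star. Right, wild-type library 2 against wild-type library 1 with the line of equal levels, where the Eif2ak2 site, at 61.9% and 15.0%, lies far above the line.

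Edited sites were also listed in other genes of the pathway lists. In the relay list 1 site was listed for Th17 cells and 2 for naive cells, in Traf6, Trim25 and Zc3hav1, with 0 listed for both groups. The eIF2 alpha list held 2 sites for Th17 cells and 7 for naive cells, all in Ppp1r15b, which encodes a phosphatase subunit that undoes the work of PKR, and 1 of these was listed for both. Adarb1 held 3 sites for Th17 cells and 3 in the DDX5-deficient and wild-type table. The DNA sensor list held 1 site for Th17 cells, in Rnaseh2a, and the interferon receptor list 1 for naive cells. No site was listed in the brakes, the OAS list, the partners of ZBP1 or the interferon-stimulated genes. Of the 101 sites listed for both Th17 and naive cells 19.8% (20 sites) changed by limma at an adjusted p under 0.05, and 0 of these sites lay in a sensor. The count was 13 without Th17 library 1, 10 without Th17 library 2 and 12 without naive library 2. With the replicate number as a block it was 0. The names of Th17 library 2 and naive library 2 also share a number whose meaning the labels do not give.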

How the data were processed

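RNA was read in 2 Th17 and 2 naive libraries, and editing in these and in 2 DDX5-deficient and 2 wild-type Th17 libraries. STAR 2.6.1a, featureCounts, DESeq2 1.18.1 and the build mm10 stand in the submitters' processing notes; strand use is not given in the sources used here. The deposited gene counts are called original in the file headers. The authors' normalized signal was the count divided by a size factor per library, and the deposited log2 fold change, its Wald score and its p-value were made by the authors. The deposited edited fraction runs from 0 to 1 and is printed as a percent; the deposited ratio columns compare libraries and were not used. Counts were tested with edgeR 4.0.16 in R 4.3.3 (filterByExpr, TMM, robust quasi-likelihood on group, Benjamini-Hochberg over all genes), and edited fractions with limma 3.58.1. The SE of a log2 fold change is its size divided by the root of the F statistic. CPM use TMM-scaled library sizes. Intervals cover counting error only, since reads carry no molecular identifiers. The fits were tested on simulated data. Alternatives were DESeq2 1.42.0, other scalings and filters, a replicate block and leaving out each library. The sensors, the gene lists and the motifs were chosen with earlier results of these data known. Every sensor and every called relay, OAS and ZBP1 gene is named, except 1 that is not reported here; other lists give their extreme 2 called genes in each direction. The promoter motifs were chosen after the data were seen.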

Additional observations from a re-analysis of the deposited data

How the results depend on the processing

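Signs of the 8 sensors held in all 11 alternatives of the expression fit. Ddx58, Oasl2, Zbp1 and Eif2ak2 were called in each alternative that kept all libraries. Eif2ak2 was near the threshold without the expression filter, at an adjusted p of 0.048 in edgeR. The counts of sensors ran from 1 to 3 higher and from 3 to 4 lower when each library was left out, and those of all genes from 2380 to 4847 higher and from 2567 to 3672 lower. Dhx58 passed with DESeq2 size factors, upper quartile scaling, the DESeq2 Wald test, the replicate block and without Th17 library 1, at adjusted p of 0.020 to 0.40 over its alternatives. Upper quartile scaling moved the median of all genes by 0.11 in log2. Libraries of the same replicate number were taken as unpaired. Their deviations from the group mean had a correlation over tested genes of -0.07. With 2 libraries per group, that value cannot show whether Th17 library 2 and naive library 2 are related. Under the replicate block 3 sensors were higher and 3 lower. Sites changed between Th17 and naive cells numbered 0 with the block and 10 to 22 with 1 library left out. No site passed an adjusted p under 0.05 by limma between DDX5-deficient and wild-type cells. That held on the arcsine scale, with the replicate block and at a coverage of at least 20. With 2 libraries per group, a site that does not pass may still have changed. The difference at the Eif2ak2 site ran from -46.8 percentage points without wild-type library 1 to 0.0805 without wild-type library 2, where its sign turned; the cause was not tested. Of 53 other genes that the naming rule selects 14 lost their call in at least 1 alternative and 0 changed sign.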
